A study of Mus musculus with 6 samples.

Results

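The matrix metalloproteinases (Mmp genes), the ADAMTS proteases (Adamts genes) and the tissue inhibitors of metalloproteinases (Timp genes) were followed in RNA-seq of sorted mouse hair follicle stem cells (HFSCs). Members were taken by gene name, as every row of the count table named Mmp, Adamts or Timp with a number, which gave 46 of 56941 genes. These were 23 Mmp, 19 Adamts and 4 Timp genes. The libraries came from dorsal skin of female mice of the strain B6;129S4-Dab2tm1Cpr/J at postnatal day (PD) 68, sorted for CD34 and α6-integrin, with 3 biological replicates per genotype. All mice were homozygous for the floxed Dab2 allele and received tamoxifen at 75 mg/kg on 5 consecutive days, from PD22 to PD26. WT mice lacked the K14CreER transgene and Dab2-cKO mice carried it. K14CreER is a tamoxifen-activated Cre recombinase driven by the K14 promoter, so that deletion is directed to K14-expressing epithelium and not to dermal cells. The comparison of the genotypes asks what differs in the RNA of sorted cells after Dab2, an endocytic adaptor protein, is targeted.

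MMPs are zinc-dependent enzymes that cut collagens, laminins, fibronectin and cell-surface proteins, and most are made as inactive precursors. ADAMTS enzymes are secreted relatives with thrombospondin repeats that process procollagens, trim large proteoglycans or act on clotting proteins. TIMPs bind the active site of these proteases and block them, with TIMP3 the member that also inhibits several ADAMTS enzymes. In skin, dermal fibroblasts are a major source of many of them, and keratinocytes, macrophages and endothelial cells make others.

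Total counts per library lay between 7040032 and 11696457, and a count of 0 allowed a share of 2.56e-05% to 4.26e-05% of a library, by counting error only. Every member had at least 7 reads in every library, so none was at the floor of 3 counts. Values below are normalized counts, which are counts divided by the TMM-scaled library size and brought to the mean size of the 6 libraries. Dab2 itself went against the labels. Counted over the whole gene, it had 338, 332 and 309 normalized counts under the WT label and 1434, 1300.2 and 1389.5 under the Dab2-cKO label. Whether the labels were exchanged was not tested, and an exchange would turn every direction. Directions below therefore compare libraries labelled Dab2-cKO with libraries labelled WT. The sum of 9 fibroblast markers was 104800 to 126756 under the WT label and 364450 to 384101 under the Dab2-cKO label, and all 9 were higher. Endothelial markers (6 of 6 higher), macrophage markers (7 of 7 higher) and skeletal muscle markers (6 of 6 higher) moved the same way. So did most markers of differentiated interfollicular epidermis (5 of 7 higher), mast cells (5 of 6), smooth muscle and pericytes (4 of 6) and adipocytes (4 of 5), with 1 lower in each list. Schwann cell markers were higher in 3 of 4, but T cell markers in only 2 of 6, with 0 lower in both lists. By the same test 16.8% of all genes were higher and 11.5% lower. Mitochondrial genes took 12.99% to 14.4% of counts under the WT label and 19.1% to 20.3% under the Dab2-cKO label, and the 100 most abundant genes 33.1% to 33.9% and 44.5% to 46.6%. Markers of hair shaft, inner root sheath and matrix fell by 6.39 on the log2 scale at their median (9 of 9 lower), and melanocyte markers were lower in 6 of 6. Of the HFSC bulge markers, Cd34 rose from 510 to 1780 and Krt15 from 3556 to 6351 normalized counts, and 7 of 10 were higher. Sox9, Lhx2 and Lgr5 of that list were lower. The bulge markers summed to means of 20473 (WT label) and 33088 (Dab2-cKO label). Fibroblast markers summed to 115858 and 373866, skeletal muscle markers to 52611 and 223866. Hair shaft, inner root sheath and matrix markers summed to 237693 and 3052. These sums are not adjusted for gene number or length, and the purity of the sort was not tested. In bulk libraries fewer cells of a type and less RNA per cell cannot be told apart. The part of these marker changes in the results below was not tested.

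Genes were called at an adjusted p under 0.05 by edgeR's quasi-likelihood test with Benjamini-Hochberg adjustment over 32149 genes tested. All 46 members were tested. Of them, 27 were called, which was 58.7%, against 28.2% of all genes tested. More of the calls were rises. There were 23 of 46 members higher (against 16.8% of all genes) and 4 lower (8.70%, against 11.5% of all genes), and 19 were not called. The median log2 fold change, Dab2-cKO over WT, was 0.37 for the members and -0.02 for all genes tested. In 26 members (56.5%) the libraries of the genotypes did not overlap, against 38.3% of all genes. Calls depend on the level of a gene. Among the 26 members with a mean of at least 100 normalized counts 69.2% were higher and 7.69% lower. Among all 10846 genes at that level, 37.6% were higher, 22.8% were lower and 60.5% were called in either direction. The split also depended on the scaling. Scaled by library size alone, 12 members were higher and 13 lower, and the median of all genes moved to -0.45. Of all 32149 genes tested, 2686 were higher and 11168 lower by that scaling. The calls of Timp1, Timp4, Mmp9, Mmp12, Mmp15, Mmp17, Mmp28, Adamts5, Adamts10, Adamts14 and Adamts15 were lost there, and 9 members were newly called lower. With upper-quartile scaling 19 members were higher and 8 lower, against 4281 and 5561 of all 32149 genes. The median of all genes was then -0.17.

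**Figure D1:**
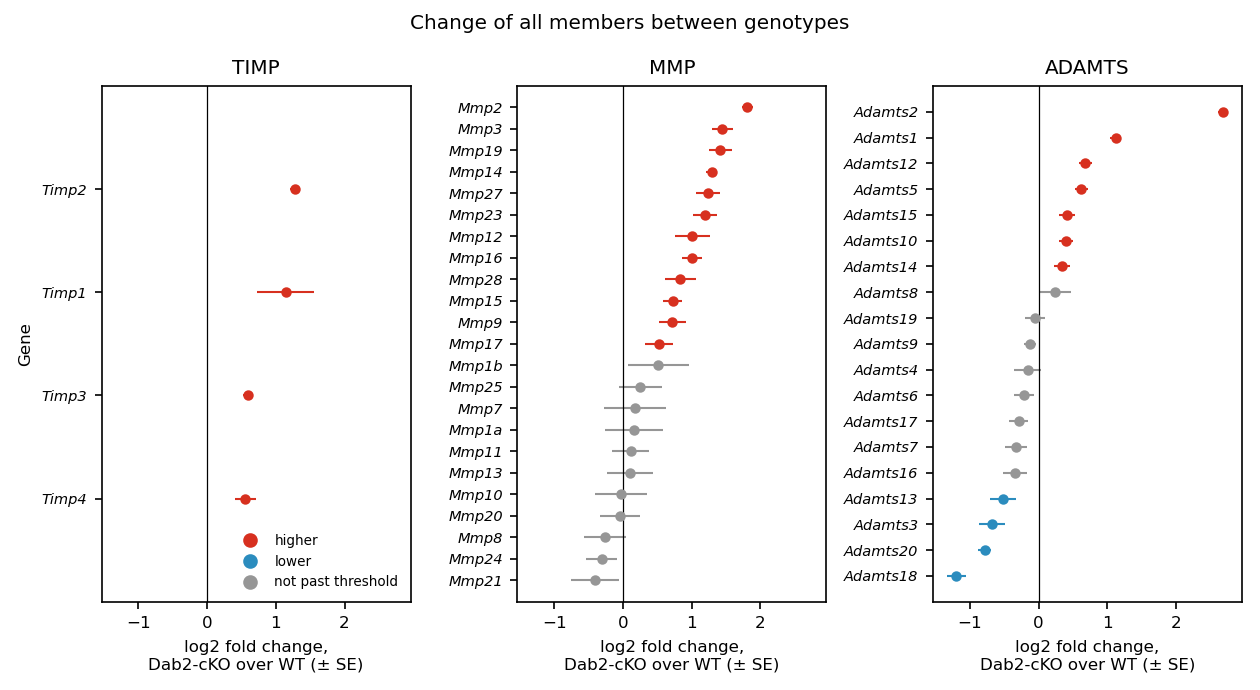
The log2 fold change of each of the 46 members is plotted on the horizontal axis, Dab2-cKO over WT, in a panel per family, with bars for the standard error of the fit. Red, blue and grey mark members higher, lower or not past the threshold. Every called Mmp and Timp gene lies to the right of 0, and the Adamts genes run from -1.20 for Adamts18 to 2.68 for Adamts2.

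Several members sit side by side in the genome. In GRCm39, 10 Mmp genes lie within 427 kb at chr9:7272514-7699587, in the order Mmp13, Mmp12, Mmp1b, Mmp3, Mmp1a, Mmp10, Mmp8, Mmp27, Mmp20 and Mmp7. A textbook element of MMP promoters is the AP-1 site, bound by Fos and Jun proteins. It was searched as TGANTCA, which reads the same on both strands, in the 250 bases before each annotated start. It was present for 11 of 23 Mmp genes (47.8%), 1 of 19 Adamts genes (5.26%, Adamts3) and 0 of 4 Timp genes. Of all 21757 protein-coding promoters, 6.18% held it. The 150 bases before the start are shown for 5 neighbours of the cluster on the plus strand, with the motif in capitals, because these genes share a locus and differ in level and change. The windows are chr9:7445672-7445821 for Mmp3, chr9:7502203-7502352 for Mmp10, chr9:7272364-7272513 for Mmp13, chr9:7463991-7464140 for Mmp1a and chr9:7571247-7571396 for Mmp27.
Mmp3: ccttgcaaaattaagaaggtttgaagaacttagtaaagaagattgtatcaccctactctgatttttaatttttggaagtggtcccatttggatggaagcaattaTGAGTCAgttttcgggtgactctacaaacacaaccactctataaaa
Mmp10: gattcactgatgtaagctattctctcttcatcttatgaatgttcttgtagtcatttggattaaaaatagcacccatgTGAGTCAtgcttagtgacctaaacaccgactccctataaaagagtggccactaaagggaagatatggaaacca
Mmp13: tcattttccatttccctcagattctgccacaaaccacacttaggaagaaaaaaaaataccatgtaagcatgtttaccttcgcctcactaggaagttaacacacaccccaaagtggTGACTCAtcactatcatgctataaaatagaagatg
Mmp1a: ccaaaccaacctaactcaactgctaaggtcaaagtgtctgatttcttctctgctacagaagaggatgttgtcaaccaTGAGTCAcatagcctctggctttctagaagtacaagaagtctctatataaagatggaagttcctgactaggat
Mmp27: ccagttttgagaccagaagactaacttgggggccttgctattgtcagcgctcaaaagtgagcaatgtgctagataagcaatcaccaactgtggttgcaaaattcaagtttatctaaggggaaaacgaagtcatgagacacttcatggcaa
The first base of the motif lay 46 bases before the start in Mmp3, 73 in Mmp10, 35 in Mmp13 and 73 in Mmp1a, and Mmp27 had none in its 250 bases. Among these 5 genes Mmp3, with the motif, and Mmp27, without it, rose. Mmp10, Mmp13 and Mmp1a, all with the motif, were not called, with means of only 16.9 to 29.1 normalized counts. Of the cluster genes not shown, Mmp12 had the motif 44 bases before its start and was called higher. Mmp1b, Mmp20 and Mmp7, with the motif, and Mmp8, without it, were not called. Whether the motif goes with a change was not tested. Over the family, 5 of the 11 Mmp genes with the motif were higher (45.5%) and 7 of the 12 without it (58.3%). Of all genes tested, 16.8% were higher.

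Within the chromosome 9 cluster 3 of 10 genes were higher and 0 lower, against 16.8% and 11.5% of all genes tested. Levels between genes are given per kb of exon, and 1438 chemosensory receptor genes served as the background. Of these, 99.0% had counts in these libraries, and whether skin uses any of them was not tested. The 95th percentile of all 1438 was 12.3 normalized counts per kb in WT-labelled and 11.7 in Dab2-cKO-labelled libraries. Mmp3 and Mmp27 stood above it in both genotypes. Mmp3 went from 42.2 to 115 and Mmp27 from 28.0 to 66.1 normalized counts per kb. The third called gene, Mmp12, was under it in both, with 5.11 and 10.1. The other 7 genes of the cluster lay between 8.39 and 14.9 per kb in either genotype, close to the receptor genes.

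**Figure D2:**
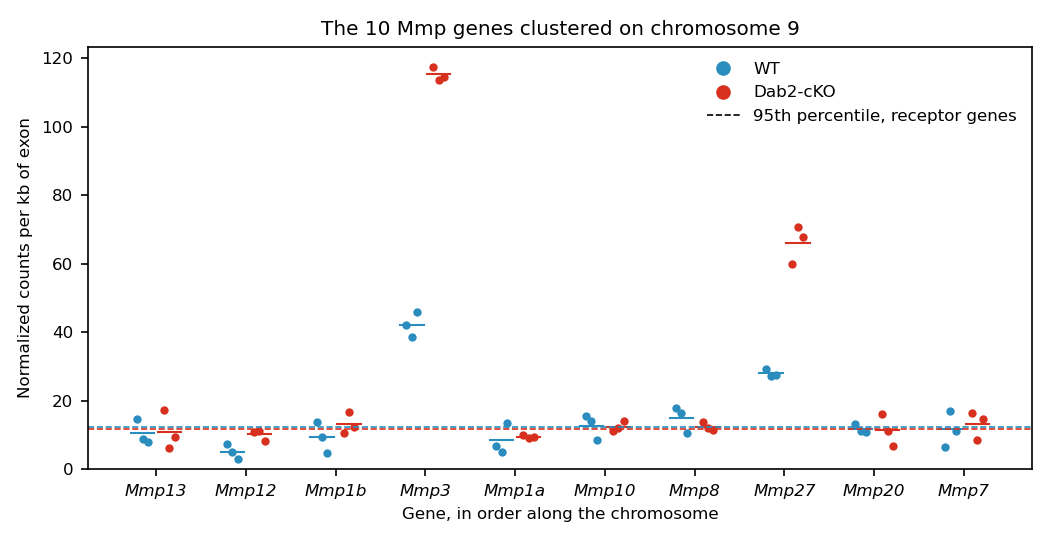
Normalized counts per kb of exon (vertical axis) are shown for the 10 Mmp genes of chromosome 9 in their order along it, with a point per library (3 per genotype), a bar for the mean and dashed lines for the 95th percentile of receptor genes. Mmp3 and Mmp27 stand well above these lines, with the libraries labelled Dab2-cKO above all those labelled WT.

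All 4 TIMPs were higher in the libraries labelled Dab2-cKO, with a median log2 fold change of 0.87 and no overlap in any of them. Of all genes tested 16.8% were higher and 38.3% were without overlap. Timp2, which with MMP14 also takes part in the activation of MMP2, had 1103, 1166 and 1169.7 normalized counts in WT-labelled libraries and 2731, 2871 and 2736 in Dab2-cKO-labelled libraries. The means were 1146 ± 37.1 and 2779 ± 79.3 (SD, n = 3), a log2 fold change of 1.28 (SE 0.07, adjusted p = 1.19e-25 by edgeR). Its rise of 2.42-fold was wider than the spread within either genotype. Timp3, the matrix-bound inhibitor, had 1235, 1309 and 1348 normalized counts in WT-labelled and 1943, 2009 and 1904 in Dab2-cKO-labelled libraries. The log2 fold change was 0.59 (SE 0.07, adjusted p = 6.02e-11 by edgeR). The libraries did not overlap. The gene lies inside Syn3 on the opposite strand, and 21.3% of its exon bases overlap Syn3, which had 142 and 124 normalized counts.

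Per kb of exon Timp4 and Timp1 were far lower, with 13.2 and 6.11 normalized counts in WT-labelled libraries against 257 for Timp2. Timp4 had 107, 86.7 and 113 normalized counts in WT-labelled libraries and 154, 135 and 161 in Dab2-cKO-labelled libraries, a log2 fold change of 0.55 (SE 0.16, adjusted p = 0.00332 by edgeR). All 3 Dab2-cKO-labelled values were above all 3 WT-labelled values. It overlaps Syn2 on the opposite strand over 14.7% of its exon bases, and Syn2 had 106 and 115 normalized counts. Timp1, an inducible inhibitor found at wounds, had only 15.6, 11.7 and 8.54 against 19.1, 36.8 and 23.2 normalized counts. Its log2 fold change of 1.14 (SE 0.42) passed narrowly (adjusted p = 0.0311 by edgeR). The call was lost without WT replicate 2 (adjusted p = 0.0745), WT replicate 3 (0.146) or Dab2-cKO replicate 2 (0.268), and by DESeq2 (0.0508).

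**Figure D3:**
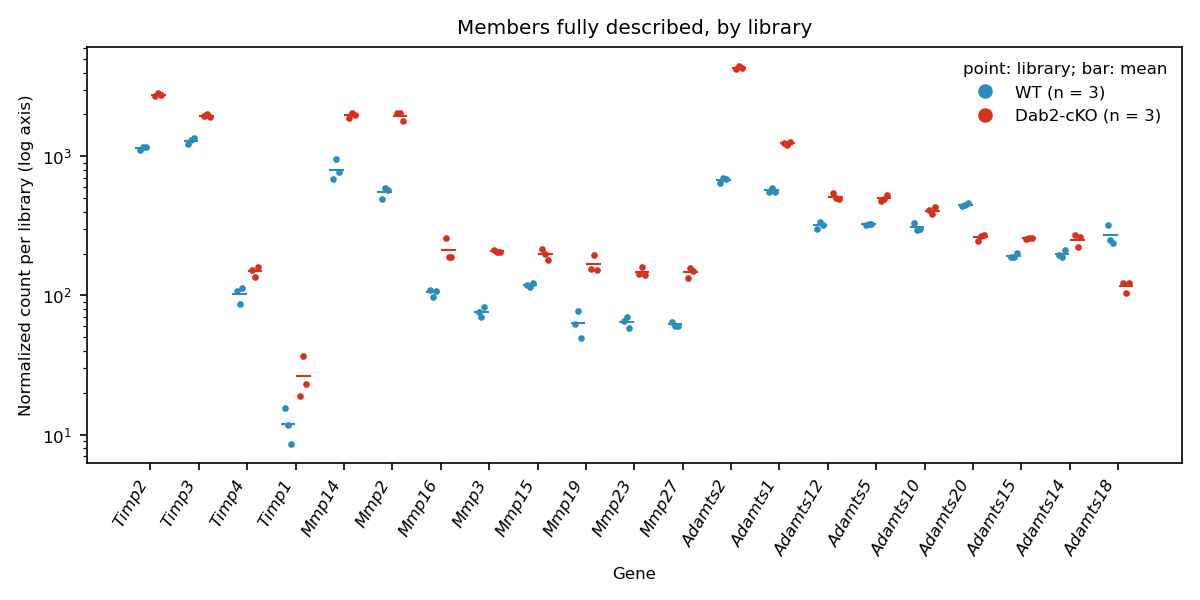
Normalized counts per library (vertical log axis) are shown for the 21 members described with full values, with a point per library, a bar for the mean and 3 libraries per genotype. Adamts2 shows the widest gap, from 674 to 4330.1, and Adamts20 and Adamts18 are the pair with the libraries labelled Dab2-cKO below those labelled WT.

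Both gelatinases, which cut denatured collagen and type IV collagen of basement membranes, were higher. Mmp2 had 494, 590.4 and 576 normalized counts in WT-labelled libraries and 2032, 2033 and 1785 in Dab2-cKO-labelled libraries. The means were 554 ± 51.8 and 1949.98 ± 143 (SD, n = 3), a log2 fold change of 1.81 (SE 0.08, adjusted p = 6.73e-32 by edgeR), or 3.52-fold. This was the largest change among the Mmp genes. Its exons overlap Gm45472 on the opposite strand over 24.3% of their bases, and that gene had 24.5 and 23.8 normalized counts. Mmp9, the gelatinase known from neutrophils, macrophages and keratinocytes at wound edges, had 59.0, 63.2 and 55.5 against 92.5, 107 and 93.8. Its log2 fold change was 0.72 (SE 0.19, adjusted p = 0.00224 by edgeR). Neutrophil markers overlapped between the genotypes in their sum (246 to 273 and 263 to 331), and 1 of the 6 tested, Csf3r, was higher. The macrophage marker sum was 1375 to 1418 and 6409 to 6755, and the keratinocyte genes Krt5 and Krt14 were higher. The part of any of these in the rise of Mmp9 was not tested.

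Of the 6 membrane-type enzymes, which act at the cell surface, 4 were higher (66.7%, against 16.8% of all genes tested) and 0 lower. Mmp14, the membrane enzyme that activates MMP2, had 687, 951 and 772 normalized counts in WT-labelled libraries and 1879.5, 2048 and 1989.9 in Dab2-cKO-labelled libraries. The log2 fold change was 1.29 (SE 0.08, adjusted p = 1.63e-23 by edgeR). Its WT-labelled libraries were spread (803 ± 135, SD, n = 3) but did not reach the lowest Dab2-cKO-labelled library. Mmp16, also transmembrane, had 110.2, 97.5 and 109 against 259, 188 and 188 (log2 fold change 1.01, SE 0.15, adjusted p = 1.81e-08 by edgeR). Mmp15 had 119, 116 and 123 against 215, 198 and 179 (0.73, SE 0.14, adjusted p = 1.35e-05 by edgeR). Neither gene overlapped between the genotypes. The GPI-anchored Mmp17 had 51.2, 58.7 and 67.5 against 78.2, 95.5 and 82.8, with a log2 fold change of 0.52 that passed by little (adjusted p = 0.0472 by edgeR). Leaving out any library but WT replicate 3 ended that call, with adjusted p between 0.0616 and 0.223. Mmp24 (65.9 and 53.3) and Mmp25 (29.5 and 34.9) were not called.

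The stromelysins, matrilysin and metalloelastase were uneven. Mmp3, stromelysin-1, which cuts a broad range of matrix proteins and activates other MMPs, had 75.7, 69.5 and 82.9 normalized counts in WT-labelled libraries. It had 212, 205 and 206 in Dab2-cKO-labelled libraries, a log2 fold change of 1.45 (SE 0.15, adjusted p = 4.89e-13 by edgeR). The other stromelysins, Mmp10 (21.9 and 21.4) and Mmp11 (38.7 and 42.0), were not called. Mmp12, the elastase of macrophages, had 53.4, 35.2 and 22.2 against 79.1, 80.5 and 59.6 normalized counts (log2 fold change 1.01, SE 0.25, adjusted p = 0.000802 by edgeR). The sum of the 7 macrophage markers was 1375 to 1418 and 6409 to 6755 in the same libraries. Mmp7, matrilysin, had 14.1 normalized counts on average in WT-labelled libraries, and its libraries overlapped between the genotypes. None of the 4 collagenases, which cut intact fibrillar collagen, was called. Mmp13 averaged 27.9 and 29.1, Mmp8 36.3 and 29.9, Mmp1a 16.9 and 19.1, and Mmp1b 13.5 and 19.0, and every one overlapped between the genotypes. Mmp1a and Mmp1b are related genes, and whether reads match both was not tested.

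Of the 6 remaining Mmp genes 4 were higher (66.7%, against 16.8% of all genes tested). Mmp19, found in skin vessels and basal keratinocytes, had 62.4, 76.7 and 49.6 normalized counts against 155, 197 and 153, a 2.68-fold rise (SE 0.17 on the log2 scale, adjusted p = 1.13e-10 by edgeR). It shares 36.8% of its exon bases with genes on the opposite strand, of which Tmem198b had 55.1 and 55.4 normalized counts. Mmp27, of which little is known, had 64.6, 60.5 and 60.7 against 133, 156 and 150.1 (1.24, SE 0.17, adjusted p = 7.01e-09 by edgeR). Mmp23, which is anchored in the membrane by its N-terminus, had 65.7, 70.4 and 58.1 against 143, 161 and 140.2 (1.19, SE 0.17, adjusted p = 1.55e-08 by edgeR). None of these 3 overlapped. Mmp28, an enzyme of keratinocytes called epilysin, had 54.6, 43.3 and 45.3 against 105, 50.6 and 97.1, with Dab2-cKO replicate 2 inside the WT-labelled range. Its log2 fold change of 0.84 (adjusted p = 0.00243 by edgeR) lost the call without Dab2-cKO replicate 1 (0.62, adjusted p = 0.0768). The tooth enzyme Mmp20 (38.8 and 37.1) and Mmp21 (29.6 and 22.5) were not called.

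Among the ADAMTS proteases 7 were higher (36.8%), 4 lower (21.1%) and 8 not called, and the median log2 fold change was -0.12. Of all genes tested 16.8% were higher and 11.5% lower, and of those with a mean of at least 100 normalized counts 37.6% and 22.8%. The largest change of any member was in Adamts2, the main enzyme that removes the N-propeptide from type I and III procollagen. It had 639, 693 and 689.5 normalized counts in WT-labelled libraries and 4243, 4461 and 4287 in Dab2-cKO-labelled libraries. The means were 674 ± 30.3 and 4330.1 ± 115 (SD, n = 3), a log2 fold change of 2.68 (SE 0.07, adjusted p = 1.41e-42 by edgeR), or 6.42-fold. The spread within each genotype was small beside this gap. Of the other procollagen N-proteinases 1 was higher by a smaller step and 1 was lower. Adamts14 had 196, 189.6 and 212 against 271, 222 and 263 (log2 fold change 0.34, SE 0.12, adjusted p = 0.0221 by edgeR). That call was lost without WT replicate 2 (adjusted p = 0.0698), Dab2-cKO replicate 1 (0.162) or Dab2-cKO replicate 3 (0.114), and by DESeq2 (0.0561), and its sign turned under library size alone (-0.089). Adamts3 went the other way, with 150.3, 99.3 and 115 against 67.7, 56.4 and 103 (-0.68, SE 0.19, adjusted p = 0.00289 by edgeR). Its highest Dab2-cKO-labelled library lay within the WT-labelled range, and the call was lost without WT replicate 1 (-0.50, adjusted p = 0.0650). In normalized counts per kb the ratio of Adamts2 to Adamts3 was 6.62 in WT-labelled and 70.6 in Dab2-cKO-labelled libraries.

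The 7 proteoglycanases, which trim versican and aggrecan, gave 3 higher (42.9%), 1 lower (14.3%) and 3 not called. Of all genes tested 16.8% were higher and 11.5% lower, and of those with a mean of at least 100 normalized counts 37.6% and 22.8%. Adamts4 and Adamts8 were under that mean, with 75.6 and 57.8 over all libraries. Adamts1 had 553, 596 and 558 normalized counts against 1239.7, 1213 and 1258 (log2 fold change 1.12, SE 0.08, adjusted p = 3.02e-21 by edgeR). Adamts5, its neighbour on chr16:85590579-85698716, had 323, 325 and 327 against 481, 491 and 526 (0.62, SE 0.09, adjusted p = 7.15e-08 by edgeR). Both neighbours rose without overlap. Adamts15 had 190.4, 189 and 201 against 255, 259 and 258 (0.41, SE 0.12, adjusted p = 0.00373 by edgeR), but under library size alone its change was -0.017. Its neighbour Adamts8 averaged 52.7 and 62.9 and was not called, and neither were Adamts4 (79.8 and 71.4) and Adamts9 (474 and 436). Adamts20, known from the belted mouse, which lacks pigment in a band of the coat, had 442, 443 and 465 against 248, 266 and 270.4. It fell by 0.79 on the log2 scale (SE 0.10, adjusted p = 4.96e-10 by edgeR), with every Dab2-cKO-labelled library below every WT-labelled one. The melanocyte marker sum was 3243 to 3588 and 1099 to 1119 in the same libraries, and the sum of hair shaft, inner root sheath and matrix markers 215805 to 259758 and 3021 to 3070. Whether the fall of Adamts20 goes with either was not tested.

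The remaining ADAMTS genes gave smaller or opposite changes. Adamts18, a gene of eye and vessel development, had 319.6, 250.1 and 240.1 normalized counts in WT-labelled libraries and 122, 105 and 124 in Dab2-cKO-labelled libraries. It fell by 1.20 on the log2 scale (SE 0.13, adjusted p = 7.31e-12 by edgeR), the largest fall of the 46. The libraries of the genotypes were clearly apart. Adamts12, an enzyme that cuts cartilage oligomeric matrix protein, had 302, 338 and 321 against 543, 503 and 493 (0.68, SE 0.09, adjusted p = 6.58e-09 by edgeR). Adamts10, which binds fibrillin microfibrils, had 333, 294 and 299.9 against 408, 382 and 432 (0.40, SE 0.10, adjusted p = 0.000801 by edgeR), and its change under library size alone was -0.028. Both were without overlap. Adamts13, the von Willebrand factor-cleaving enzyme, had 130.3, 104 and 75.2 against 62.0, 84.0 and 68.4, with overlap. Its log2 fold change of -0.52 (adjusted p = 0.0345 by edgeR) lost the call without any of WT replicates 1 and 2 and Dab2-cKO replicates 1 and 3, with adjusted p from 0.0792 to 0.329, and by DESeq2 (0.0804). Adamts7 (139 and 110.5), Adamts16 (121 and 94.4), Adamts17 (190.1 and 156), Adamts6 (158 and 136) and Adamts19 (138 and 133) were not called. Of these, Adamts17 was called lower without Dab2-cKO replicate 2 (-0.45, adjusted p = 0.0168). Adamts7, Adamts16, Adamts17 and Adamts9 were called lower under upper-quartile scaling and with a filter at a mean count of at least 50, and Adamts7, Adamts16, Adamts17, Adamts6, Adamts19 and Adamts9 under library size alone.

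Per kb of exon the members differed widely in level. In the libraries labelled WT the order was Timp2 (257 normalized counts per kb), Timp3 (159), Mmp2 (157), Mmp14 (130.2), Adamts1 (104) and Adamts2 (71.2). Timp3, Mmp2 and Mmp14 overlapped in their libraries, and Mmp2 was above Timp3 in replicate 2. In the libraries labelled Dab2-cKO the order was Timp2 (623), Mmp2 (552), Adamts2 (458), Mmp14 (319.9), Timp3 (239.6) and Adamts1 (226), and no neighbours among these overlapped. The 5 highest members made up 51.6% ± 2.22 of the members' summed level per kb in WT-labelled and 65.7% ± 0.720 in Dab2-cKO-labelled libraries (SD, n = 3). Summed per kb, the MMPs went from 580.4 to 1384, the ADAMTS proteases from 548 to 1055 and the TIMPs from 435 to 895. The ratio of TIMP to MMP sums was 0.751 ± 0.0388 and 0.647 ± 0.0166 (SD, n = 3), without overlap. The TIMP sum rests mainly on Timp2 and Timp3. Mmp2 and Mmp14 are the largest parts of the MMP sum, with 157 and 130.2 of 580.4 in WT-labelled libraries. In Dab2-cKO-labelled libraries they made up 552 and 319.9 of 1384. Among the other Mmp genes in that sum, 8 were at or under the 95th percentile of receptor genes in both genotypes. As the members were chosen with earlier results known, the ratio of TIMP to MMP sums is a description and carries no test. Against the receptor genes 27 members were above the 95th percentile in both genotypes, 9 in 1 genotype and 10 in neither. Of the 10, Mmp12 and Mmp28 were called higher and Adamts3 lower.

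The members were also set beside markers measured in the same libraries, as ratios. These ratios were chosen after the values were seen and carry no test. All 21 fully described members were called and without overlap in their own counts. The same ratios were not counted over all genes, so the counts below only describe these members. The markers themselves rose. The fibroblast marker sum went from a mean of 115858 to 373866, and Krt5 rose 1.53-fold and Krt14 1.80-fold. A member that rose by less than the markers is therefore lower in the ratio. Relative to the sum of the 9 fibroblast markers, Adamts2 went from 5.84 to 11.6 per 1000 and was the only 1 of the 21 fully described members that was higher without overlap. Mmp2 went from 4.78 to 5.22, with overlap, as did Mmp3, Mmp19 and Timp1. The other 16 were lower, among them Mmp14 (6.90 to 5.28), Timp2 (9.94 to 7.43) and Timp3 (11.2 to 5.22). Left with the 5 markers that are not collagens, 1 member was higher, 17 were lower and 3 overlapped. Relative to Krt5 and Krt14, keratins of basal epithelium, 9 were higher, 6 lower and 6 overlapped. Adamts18 and Adamts20 were lower by each of these measures, which had to follow because their own counts fell while the markers rose.

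**Figure D4:**
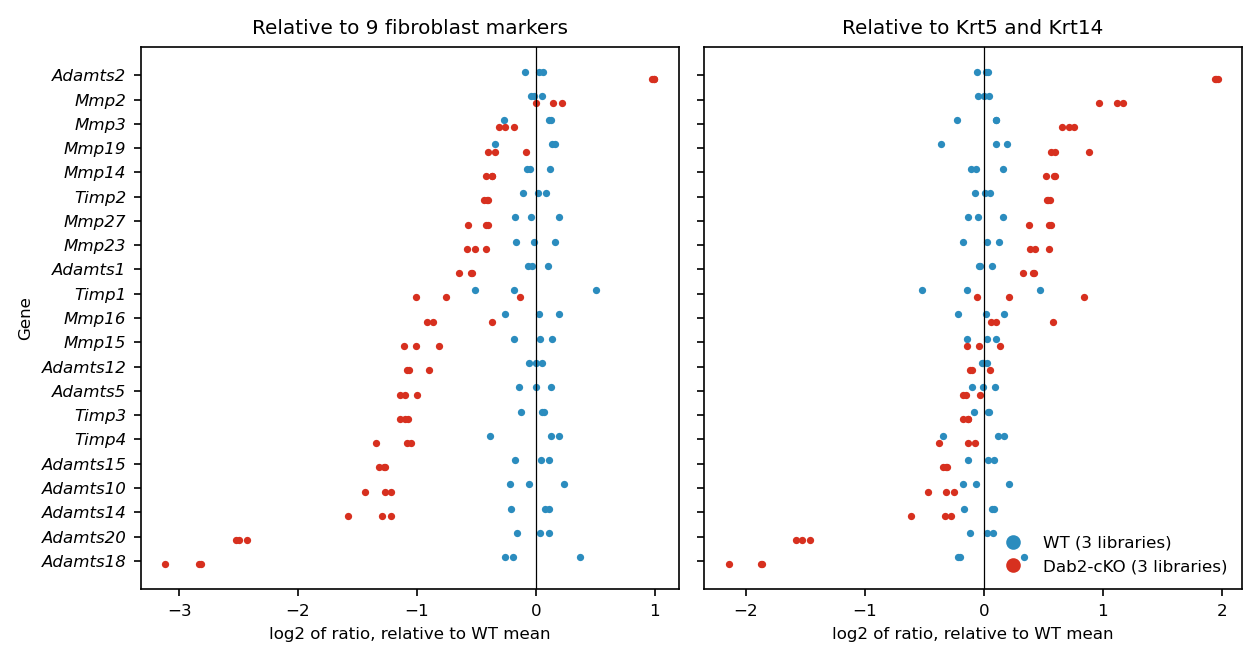
The ratio of each of the 21 members to the summed fibroblast markers (left) and to Krt5 plus Krt14 (right) is plotted per library as log2 relative to the WT mean, with blue points for WT and red points for Dab2-cKO (3 libraries each). On the left Adamts2 stands apart on the right side of 0, and on the right 9 members do.

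Genes that act with these proteases were counted as lists. Of 60 such genes, all tested, 33 were higher, 9 lower and 18 not called, with a median log2 fold change of 0.44. Among all genes tested 16.8% were higher and 11.5% lower. Of the 46 list genes with a mean of at least 100 normalized counts 67.4% were higher and 19.6% lower, against 37.6% and 22.8% of all genes at that level. Of 9 activating proteases 2 were higher and 2 lower. St14, matriptase, an epithelial membrane protease, went from 1687 to 475 (log2 fold change -1.83, SE 0.08, adjusted p = 4.71e-32 by edgeR) and Pcsk6, a proprotein convertase, from 429.9 to 568 (0.40). Of 13 other inhibitors 7 were higher and 2 lower. Spint1, the inhibitor of matriptase, went from 549 to 168 (-1.71, SE 0.10, adjusted p = 2.67e-23 by edgeR), so that enzyme and inhibitor fell together, and the proteoglycan Spock2 went from 96.2 to 286 (1.57). Surface partners and clearance receptors had 4 of 6 higher and 1 lower. Lrp1, the receptor that takes up proteases and their complexes with inhibitors, went from 3341 to 7779 (1.22, SE 0.07, adjusted p = 1.25e-24 by edgeR), and the collagen receptor Mrc2 from 286 to 617 (1.11).

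ADAMTS-like proteins, which share the ADAMTS repeats but lack the protease, had 5 of 6 higher and 0 lower, with Adamtsl2 at 0.72 and Adamtsl4 at 0.69 on the log2 scale. ADAM and astacin metalloproteinases had 9 of 12 higher and 0 lower, with Adam12 at 1.03 and Adam33 at 0.97. Of 14 matrix substrates other than collagens 6 were higher (42.9%) and 4 lower (28.6%). Among all genes tested 16.8% were higher and 11.5% lower, and at a mean of at least 100 normalized counts 37.6% and 22.8%. Elastin (Eln) went from 457 to 1785 (1.96, SE 0.08, adjusted p = 1.72e-32 by edgeR) and fibrillin-1 (Fbn1) from 1918 to 7360.2 (1.94, SE 0.07, adjusted p = 2.51e-35 by edgeR). Scaled by library size alone, 20 of the 60 genes were higher and 20 lower, against 2686 and 11168 of all 32149 genes tested.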

How the data were processed

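Total RNA (5 ng) of sorted HFSCs was sequenced by the authors after a stranded low-input kit. Per the paper's methods and the submitters' processing notes, reads were checked with FastQC 0.11.9, trimmed with fastp 0.23.4, aligned to GRCm39 with HISAT2 2.2.1, sorted with SAMtools 1.6 and counted per gene with featureCounts 2.0.6. The table the authors deposited holds raw counts. The strand setting, annotation release and use of molecular identifiers are not given in the sources used here, so a gene and a partner on the opposite strand may share reads. The authors' DESeq2 1.42.0 table (fold changes, p-values and counts scaled by size factors) was not used. Columns named FL-FL were taken as Dab2-cKO by the series title, and every direction depends on this.

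Counts were filtered and TMM-normalized with edgeR 4.0.16 (R 4.3.3) and compared by its robust quasi-likelihood test, 3 libraries against 3, with Benjamini-Hochberg adjustment. The test was checked on simulated data. Few genes changed there and rises equalled falls in number, so the check does not cover the scaling of these libraries. The labels call the libraries biological replicates. Members, lists and tests were chosen with earlier results of these data known. Full values are given for all 4 Timp genes and for every other member called with a mean of at least 100 normalized counts. They are also given for members with a mean of at least 500. Of each list, the 2 called genes with the largest changes at a mean of at least 100 are named with shorter values. Members outside the rule for full values are named with shorter values, but those called are given by library with an adjusted p. Krt85 of a marker list was not analysed here. Lengths, exon overlaps and starts came from the GENCODE annotation of GRCm39, with the canonical transcript for each start. Alternatives were other scalings, filters, DESeq2, a replicate block, each library left out, and a fold above 1.5.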

Additional observations from a re-analysis of the deposited data

How the results depend on the processing

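Of the 23 members higher and 4 lower, library size alone gave 12 and 13, upper-quartile scaling 19 and 8 lower, a mean count of at least 50 gave 20 and 8 lower, and leaving out 1 library 20 to 22 higher and 2 to 5 lower (2 without WT replicate 1, where Adamts3 and Adamts13 were lost). The other settings gave 18 to 23 higher and 3 or 4 lower, with 20 and 3 by DESeq2 and 18 and 3 at a fold above 1.5. For the 60 genes of related lists (33 higher, 9 lower), library size alone gave 20 and 20, a fold above 1.5 gave 23 and 5 lower, and leaving out 1 library 30 to 33 and 8 to 9. Over all genes 5387 were higher and 3682 lower, against 2686 and 11168 by library size alone and 4281 and 5561 by upper-quartile scaling. Over 13 alternative fits of the 46 members and 12 list genes named, 659 of 743 values kept direction and side of the threshold, 41 lost the threshold, 18 crossed it and 25 changed sign. Sign changes under library size alone were Adamts10 -0.028, Adamts14 -0.089, Adamts15 -0.017, Pcsk6 -0.026, Adamts8 -0.18, Mmp13 -0.34, Mmp1a -0.27, Mmp7 -0.24, Mmp25 -0.17 and Mmp11 -0.31. Under upper-quartile scaling they were Mmp13 -0.044 and Mmp11 -0.030. With 1 library left out, 8 members that were not called changed sign: Adamts19 (-0.095 to 0.034), Mmp13 (-0.42 to 0.40), Mmp1a (-0.11 to 0.73), Mmp7 (-0.084 to 0.57), Mmp25 (-0.031 to 0.50), Mmp20 (-0.41 to 0.20), Mmp10 (-0.25 to 0.14) and Mmp11 (-0.045 to 0.24). The cause was not tested.

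A replicate block gave 23 higher and 4 lower, with 0 member calls lost or gained. Libraries of the same number hardly deviated together (r = 0.07, -0.01 and 0.06 over 14798 genes). WT replicates 1 and 3 correlated best with the Dab2-cKO replicate of their own number, and WT replicate 2 with Dab2-cKO replicate 3 (r = 0.05). As these correlations were weak, the numbers were not taken as pairs. Depth limits the members near the receptor background, where counts were as low as 7.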
